A study of Mus musculus with 16 samples.

Results

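The comparison described here asks how far the effect of lysophosphatidylcholine (LPC) on imiquimod-treated mouse ear skin differed between day 4 and day 7 of treatment. For each gene, the LPC effect at day 4 (LPC against vehicle, on the log2 scale) was subtracted from the LPC effect at day 7. All 16 of the 16 libraries of the series enter this difference, in 4 groups of 4 mice set by the sample titles. It was computed for 15782 of the 19439 genes in the files, the rest having too few counts. A positive difference means that LPC skin stood higher, relative to vehicle skin, at day 7 than at day 4.

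The groups are the vehicle and LPC mice of each of the 2 days. All mice were BALB/c, aged 8 weeks, and all received imiquimod on the ear, the vehicle groups included, so no group shows untreated skin. The injections were 10 µl of LPC at 10 mM or of normal saline into the dermis, planned daily for 6 days. Mice killed on day 4 cannot have had all of the injections planned. The design text gives 4 mice per group, numbered here as in the titles, so the spread within a group is that between animals.

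Imiquimod activates Toll-like receptor 7, and its repeated application to mouse skin causes a psoriasis-like inflammation with epidermal thickening and infiltration by leukocytes that make interleukin 17. LPC is a phospholipid with a single fatty acid chain, formed when phospholipases cut phosphatidylcholine. It can act on cell membranes as a detergent and as a ligand of lipid-sensing receptors. In a comparison of effects, a gene can stand out because LPC skin moved between the days, because vehicle skin moved, or both.

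Total expected counts (read counts estimated per gene by the authors) lay between 18704197 and 20131513 per library. The 4 keratinocyte markers Krt5, Krt14, Krt1 and Krt10 summed to between 16100 and 44300 CPM (read counts scaled to library size) in all 16 libraries. Libraries within a group were not alike. In LPC day 7, mice 2 and 4 had skeletal muscle list scores of 8.86 and 9.0 (mean log2 CPM over the 27 genes of the list) against 4.86 and 3.46 in mice 1 and 3, and adipocyte list scores of 5.8 and 7.87 against 2.73 and 3.26. Mouse 3 of vehicle day 4 had the lowest muscle score of its group, 6.26 against 9.57 to 10.05 in the others. In the T cell marker list only 2 of 4 markers could be matched to the files. In whole skin, fewer cells of a type and less RNA per cell cannot be told apart.

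No gene passed the test of the difference. At an adjusted p under 0.05 (edgeR quasi-likelihood test, Benjamini-Hochberg over all genes tested), 0 of 15782 genes (0%) were called, and the smallest adjusted p was 0.0583. At an unadjusted p under 0.05 there were 2674 genes, or 16.9% of those tested, 1704 with a positive and 970 with a negative difference. The number called by the other tools ran from 0 with log2(FPKM + 0.1) in limma, through 9 with limma-voom, to 585 with DESeq2. All differences below are therefore given as values with their standard errors, and the words rose and fell are kept for genes called within a day. Within days, 22 genes (0.139%) were called at day 4 and 604 (3.83%) at day 7.

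Past a 2-fold limit, most genes whose LPC effect changed sign were lower at day 4 and higher at day 7. Of the 15782 genes, 6923 (43.9%) had opposite signs at the 2 days, 3604 lower at day 4 and higher at day 7 and 3319 the other way round. With both effects at least 2-fold, 157 genes (0.995%) were lower at day 4 and higher at day 7, and 6 genes (0.038%) were higher at day 4 and lower at day 7. At a limit of 1.5-fold these counts were 466 and 75, and at 3-fold they were 44 and 1. At 2-fold they were 45 and 5 on log2(FPKM + 0.1), 117 and 15 with limma-voom, and 360 and 143 with no low-count filter. They came near to even with the muscle score as a covariate, at 29 and 28, and were 33 and 22 with the adipocyte score and 33 and 19 without LPC day 7 mice 2 and 4. The muscle score itself had means of 8.91 (vehicle) and 4.46 (LPC) at day 4 and of 7.47 and 6.54 at day 7. The adipocyte score had means of 6.09 (vehicle) and 4.15 (LPC) at day 4 and of 5.1 and 4.91 at day 7. A fit with either score as a covariate, here and below, therefore takes out part of the contrast itself. Genes that kept their direction past 2-fold numbered 198 higher at both days and 58 lower at both. The 163 sign-changing genes were chosen by the values of this same contrast, so their counts are a description with no test. The genes nearest the limit inside it were Cdh15 (log2 effects -3.20 at day 4 and 1.00 at day 7), Acss3 and Steap4, and nearest outside it were Epsti1 (-1.0 and 1.76), Apol6 and Rptn.

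**Figure D1:**
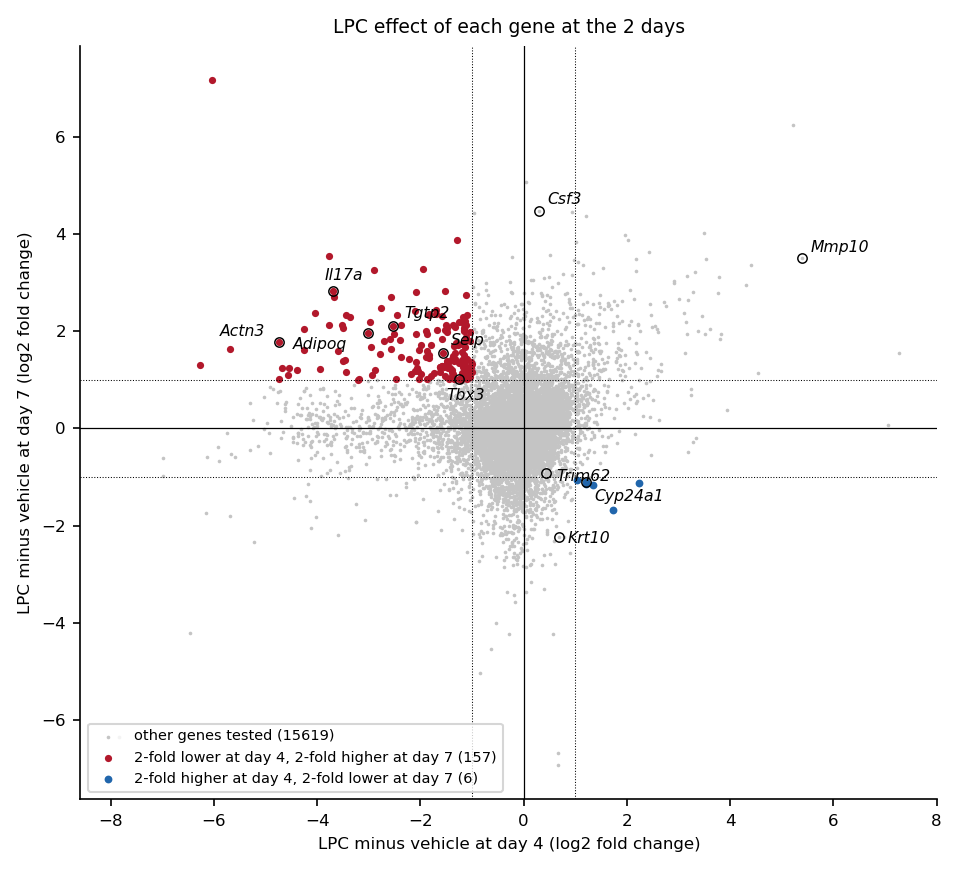
LPC effect of each of the 15782 genes tested at day 4 (horizontal axis) and at day 7 (vertical axis), both as log2 fold change of LPC against vehicle, n = 4 mice per group. Red points are the 157 genes at least 2-fold lower at day 4 and 2-fold higher at day 7, blue points the 6 genes with the reverse pattern, grey points all others; dotted lines mark 2-fold, and circles mark the genes labelled.

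The group means show where the 157 genes moved. From day 4 to day 7 their median change was 2.97 (log2) in LPC skin, with 148 of 157 higher at day 7, and -0.81 in vehicle skin, with 114 of 157 lower at day 7. Over all genes tested the same medians were 0.03 and 0.00. The 157 genes were chosen by opposite effects at the 2 days, so a higher change in LPC than in vehicle skin was fixed beforehand. The contrast with all genes is therefore a description. Set against the vehicle mean of day 7, LPC mice 2 and 4 had medians over the 157 genes of 1.67 and 3.02. LPC mice 1 and 3 had -0.49 and -0.35. All LPC mice lay below all vehicle mice for 39 of the 157 at day 4, and above them for 12 of the 157 at day 7. Over all genes, in either direction, 2540 (16.1%) did not overlap at day 4 and 1714 (10.9%) at day 7. At day 7 the share was thus lower among the 157 than over all genes. The 157 were chosen by effect size and counted in 1 direction, so these shares are not like for like. Tbx3 was the only member of the 157 that passed the adjusted test at day 4, and the only member that passed it at day 7.

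Tbx3 encodes a T-box transcription factor of limb, mammary and skin development. It had the smallest p of all positive differences among genes averaging 1 or more on the log2 CPM scale. At day 4 it stood at 13.2, 9.19, 7.78 and 11.3 CPM in vehicle mice 1 to 4 and at 4.38, 3.66, 4.83 and 4.48 CPM in LPC mice. At day 7 the vehicle mice had 3.23, 4.02, 5.43 and 6.11 CPM and the LPC mice 8.61, 10.6, 8.26 and 10.3 CPM. Every LPC mouse was below every vehicle mouse at day 4 and above every vehicle mouse at day 7. Tbx3 fell at day 4 by 1.25 on the log2 scale (SE 0.23, adjusted p = 0.046, edgeR) and rose at day 7 by 1.01 (SE 0.22, adjusted p = 0.029). It was the only one of the 6 genes called at both days that had opposite signs. The difference was 2.26 ± 0.32 (SE), adjusted p = 0.058, and 2.14 without LPC day 7 mice 2 and 4. The level in vehicle skin was lower at day 7 than at day 4 (log2 change -1.14) while that in LPC skin was higher (1.12). The gene lies on chromosome 5 (GRCm38, chr5:119670534-119684724).

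Itgal, the alpha subunit of the integrin LFA-1 on leukocytes, lay between 3.74 and 6.72 CPM in all 8 mice of day 4. At day 7 it was at 10.0, 5.46, 8.64 and 4.74 CPM with vehicle and at 28.0, 22.9, 21.6 and 29.2 CPM with LPC. The groups overlapped at day 4, and at day 7 every LPC mouse was above every vehicle mouse. Itgal rose at day 7 by 1.82 ± 0.24 on the log2 scale (adjusted p = 0.010, edgeR). The difference between days was 2.10 ± 0.34 with an adjusted p of 0.067. Lcp2, an adaptor of immune receptor signalling, had a difference of 1.91 ± 0.36, Dusp2, a phosphatase of MAP kinases induced in activated leukocytes, 2.66 ± 0.52, and Rac2, a GTPase of blood cells, 2.62 ± 0.52. All of these rose at day 7 and had day 4 effects between -0.82 and -0.19 that did not pass the test.

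A further pair encodes potassium channels, Kcnc4 (a voltage-gated subunit) and Kcnj2 (an inward rectifier). Kcnc4 stood at 41.5, 55.1, 26.3 and 57.3 CPM with vehicle at day 4 and at 14.6, 6.35, 7.74 and 8.55 CPM with LPC. The day 7 values were 15.3, 17.4, 23.8 and 26.4 CPM with vehicle and 28.3, 25.2, 16.1 and 47.3 CPM with LPC. The groups were apart at day 4 and overlapped at day 7. Kcnc4 fell at day 4 by 2.27 and Kcnj2 by 1.73 (log2, SE 0.35 and 0.27, both adjusted p = 0.025, edgeR), and their day 7 effects were 0.50 ± 0.34 and 0.30 ± 0.26. The differences were 2.77 ± 0.49 and 2.03 ± 0.38. Btg2, an antiproliferative early response gene, differed in another way: its vehicle mean was 123 CPM at day 4 and 58.1 CPM at day 7, and its LPC means were 98.1 and 129 CPM (difference 1.48 ± 0.27). The remaining 2 of the 10 leading positive genes were Hpcal1, a neuronal calcium sensor (1.02 ± 0.17), and Tspan13, a tetraspanin (2.15 ± 0.38).

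Trim62, a ubiquitin ligase, had the smallest p of the leading negative differences. It stood at 27.4, 25.8, 25.5 and 20.6 CPM with vehicle and at 29.9, 41.3, 35.8 and 27.6 CPM with LPC at day 4. On day 7 these were 30.0, 35.1, 39.5 and 37.6 CPM with vehicle and 19.3, 20, 17.5 and 18.4 CPM with LPC. The LPC mice were all higher at day 4 and all lower at day 7. The day 4 effect was 0.44 ± 0.14 (adjusted p = 0.11, edgeR), Trim62 fell by 0.92 at day 7 (SE 0.14, adjusted p = 0.010), and the difference was -1.36 ± 0.20 with an adjusted p of 0.058.

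Pou2f3, a POU factor of differentiating keratinocytes, ranged from 39.5 to 91.3 CPM in the 12 mice outside LPC day 7 and was at 17.4, 29.1, 14.9 and 21.0 CPM in LPC day 7. Its effects were 0.26 ± 0.25 at day 4 and -1.83 ± 0.26 at day 7, where it fell (adjusted p = 0.010, edgeR). The secreted factor Wnt7b had a difference of -1.72 ± 0.31, the insulin-like growth factor binding protein Igfbp2 -1.76 ± 0.30 and the calpain subunit Capns2 -1.50 ± 0.26. The keratinocyte membrane protein Skint10 had -2.41 ± 0.44 and the membrane receptor Lrp4 -2.03 ± 0.37. All 5 fell at day 7 and had positive day 4 effects that did not pass the test. Oas1f, a member of the oligoadenylate synthetase family, also fell at day 7, with LPC mice at 8.01, 16.1, 10.0 and 17.1 CPM against 41.3, 43.9, 67.3 and 66.2 CPM with vehicle, and its difference was -2.55 ± 0.43. That is the opposite sign to the interferon response genes described further on.

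Bmp2, a bone morphogenetic protein that acts in hair follicle and epidermis, had its larger effect at day 4. There it stood at 17.1, 15.8, 20 and 12.3 CPM with vehicle and at 45.8, 45.9, 42.6 and 48.5 CPM with LPC. Its values at day 7 were 8.28, 20.8, 12.1 and 21.0 CPM with vehicle and 10.6, 4.87, 11.1 and 11.5 CPM with LPC. The groups were far apart at day 4 and overlapped at day 7. The effects were 1.49 ± 0.30 and -0.71 ± 0.30, with adjusted p of 0.056 and 0.20 (edgeR), and the difference was -2.20 ± 0.42.

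**Figure D2:**
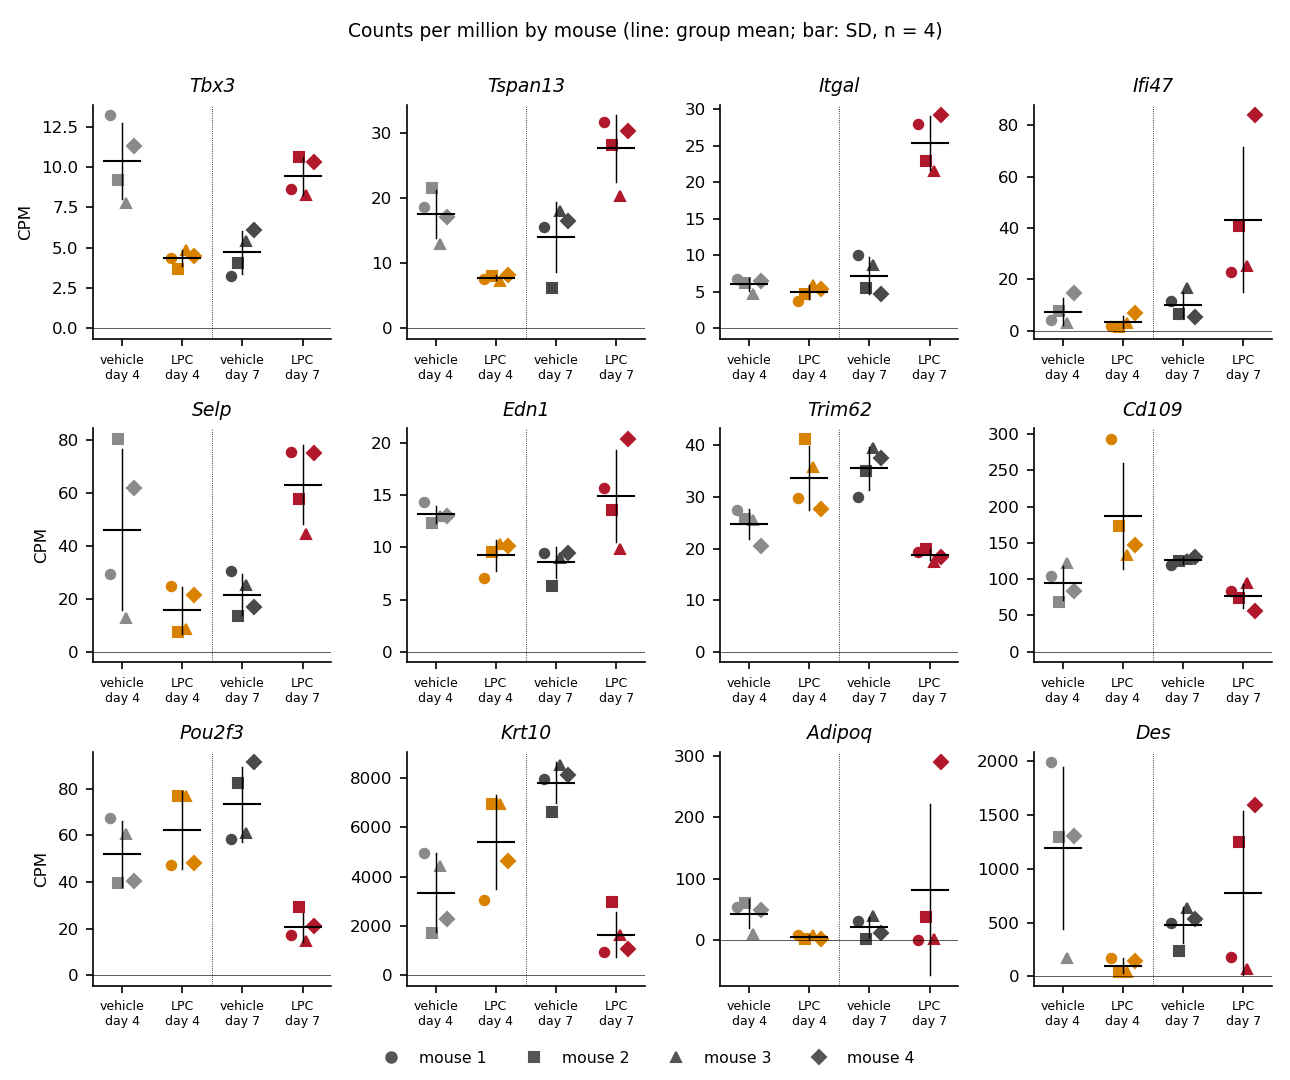
CPM of 12 genes in each of the 16 mice (vertical axes, linear, from 0 or below), by group (horizontal axes); symbols give the mouse number within its group, horizontal lines the group mean and vertical bars the SD (n = 4). Tbx3, Tspan13 and Edn1 lie lower with LPC at day 4 and higher at day 7, Trim62 and Cd109 the reverse, and Adipoq and Des are high in LPC day 7 mice 2 and 4 alone within that group.

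For 13 genes (0.0824%) the LPC and vehicle mice were apart at both days in opposite directions, against 112 genes (0.71%) apart at both days in the same direction. These 13 genes were picked by that pattern after their values were seen, and no test of it is given. Lower at day 4 and higher at day 7 were Tbx3, Apol10b, Tspan13, Acot7, Wipi1, Edn1 and Stx18. Higher at day 4 and lower at day 7 were Trim62, Lrrc1, Cd109, Fam46a, Ahrr and Sec11c. The size of their differences ran from 0.35 ± 0.14 for Stx18 to 4.88 ± 0.84 for Apol10b, which had at most 1 count in each LPC day 4 mouse and 11 to 44 counts in LPC day 7. Edn1, the vasoconstrictor endothelin, was at 14.3, 12.3, 13 and 13 CPM with vehicle and 7.10, 9.53, 10.3 and 10.1 CPM with LPC at day 4. At day 7 it was at 9.48, 6.34, 9.01 and 9.44 CPM with vehicle and 15.7, 13.6, 9.83 and 20.4 CPM with LPC. Its difference was 1.30 ± 0.30. Cd109, a membrane protein of keratinocytes that binds transforming growth factor beta, lay between 68.2 and 122 CPM with vehicle and 133 and 293 CPM with LPC at day 4. On day 7 it lay between 120 and 130 CPM with vehicle and 56.0 and 94.9 CPM with LPC, and its difference was -1.69 ± 0.34. Ahrr, the repressor of the aryl hydrocarbon receptor, had effects of 1.03 ± 0.28 at day 4 and -0.81 ± 0.28 at day 7.

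Interferons act through STAT factors that bind 2 kinds of promoter element, the interferon-stimulated response element (ISRE) and the gamma-activated site (GAS). Several of the sign-changing genes with the smallest p were immunity-related GTPases, which attack the vacuoles of intracellular microbes, and lie next to each other on mouse chromosome 11. Tgtp1, Tgtp2, Ifi47 and Gm5431 start within a stretch from 48887422 to 49076587, and Gm12250 and Irgm2 start at 58183843 and 58214977 (GRCm38). In all, 31 of the 156 genes with a place in the annotation started within 100 kb of another of the 157, among them Il17a with Il17f, Gbp6 with Gbp10, a run of 4 Ms4a genes and 2 runs of Krtap4 genes. The same share was not worked out for all genes tested, so this count does not set the 157 genes apart. The sequences below come from the RefSeq promoters of build GRCm38.p6 and are shown because 3 of these neighbours share the layout of their motif matches. Irgm2 and Gbp5 were named for it after their values were seen. Each line gives 80 bases 5′ to 3′ on the gene's strand from the 250 bases before the transcription start, with matches to ISRE (2 copies of GAAA separated by 2 bases, on either strand) and GAS (TTC and GAA separated by 3 bases, which reads alike on both strands) in capitals.
Irgm2 (chr11:58214878-58214957, plus strand): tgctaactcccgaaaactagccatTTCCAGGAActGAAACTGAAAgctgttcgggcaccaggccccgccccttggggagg
Tgtp1 (chr11:48992279-48992358, minus strand): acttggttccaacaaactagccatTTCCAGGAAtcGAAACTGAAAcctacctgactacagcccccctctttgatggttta
Tgtp2 (chr11:49064238-49064317, minus strand): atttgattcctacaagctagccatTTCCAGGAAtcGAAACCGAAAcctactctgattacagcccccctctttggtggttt
Gm12250 (chr11:58183762-58183841, plus strand): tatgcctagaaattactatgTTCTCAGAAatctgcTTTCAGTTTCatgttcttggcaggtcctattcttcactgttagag
Gbp5 (chr3:142496734-142496813, plus strand): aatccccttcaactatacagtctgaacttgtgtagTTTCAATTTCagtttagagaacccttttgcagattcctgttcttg
Trim30a (chr7:104465194-104465273, minus strand): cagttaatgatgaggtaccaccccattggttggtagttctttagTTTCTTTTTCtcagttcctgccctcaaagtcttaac

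Irgm2, Tgtp1 and Tgtp2 share a run of 17 bases (ctagccatttccaggaa) that holds the GAS match, followed within a few bases by an ISRE match. Gm12250 holds a GAS match of other letters and an ISRE match that, read on the opposite strand, has the letters of those in Irgm2 and Tgtp1, and the windows of Gbp5 and Trim30a hold an ISRE match alone. In the 250 bases before the start, an ISRE match was found in 15 of the 111 sign-changing genes (lower at day 4, higher at day 7) that have a promoter in the table, or 13.5%, against 336 of 12411 of all genes tested, or 2.71%. The GAS shares were 10.8% and 6.08%. Of the 148 sign-changing genes outside the 2 interferon lists, 10 of 103 with a promoter (9.71%) held an ISRE match. Gm12250, one of the GTPases above, is among these 10. Being outside the 2 lists therefore does not place a gene outside the interferon response. A match is a run of letters and does not show that a factor binds there. Motifs of the muscle factor MEF2 (CTA and TAG separated by 4 bases, on either strand) were in 3.60% of the 111 and 2.79% of all genes tested.

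Tgtp2 stood at 3.02, 7.11, 2.56 and 8.21 CPM with vehicle at day 4 and at 1.12, 0, 0.727 and 1.78 CPM with LPC. The day 7 values were 5.83, 5.05, 8.64 and 4.06 CPM with vehicle and 5.96, 28.8, 5.38 and 61.5 CPM with LPC. All LPC mice were below all vehicle mice at day 4, and at day 7 mice 2 and 4 alone were above them. The effects were -2.52 ± 0.88 and 2.11 ± 0.82 and the difference was 4.63 ± 1.20 (adjusted p = 0.16, edgeR). Without mice 2 and 4 of LPC day 7, the day 7 effect was -0.02 and the difference 2.51. Tgtp1 and Tgtp2 are near-identical neighbours between which reads were shared by a model, so their separate values are uncertain.

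Ifi47, from the same neighbourhood, behaved less unevenly. At day 4 it was at 4.34, 7.56, 3.09 and 14.8 CPM with vehicle and at 2.03, 1.56, 3.17 and 6.97 CPM with LPC. On day 7 these were 11.5, 6.39, 16.6 and 5.43 CPM with vehicle and 23.0, 40.9, 25.3 and 83.9 CPM with LPC. The groups overlapped at day 4 and were apart at day 7. Its effects were -1.12 ± 0.60 and 2.12 ± 0.60, and 1.31 at day 7 without mice 2 and 4. Gm12250 had the largest difference of the GTPases named, 5.28 ± 1.20, and 3.29 without those mice, when its day 7 effect was 0.69.

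Over the list of interferon gamma GTPases and antigen processing genes, the median effect was -0.73 at day 4 and 1.55 at day 7, and 18 of 19 members had a positive difference. None of the 19 passed the adjusted test of the difference, 14 had a positive difference at an unadjusted p under 0.05, and 6 were among the 157. Gbp2, a guanylate-binding protein, had the smallest p of the list, with a difference of 2.56 ± 0.64. Over the type I interferon response list, medians were -0.47 and 2.02, all 28 members had a positive difference, 16 of them at an unadjusted p under 0.05, and 3 were among the 157. Isg15, the ubiquitin-like modifier, was at 54.4, 53.6, 34.3 and 52.8 CPM with vehicle and 18.7, 22.7, 51.2 and 63.5 CPM with LPC at day 4. Its values at day 7 were 35.6, 12.9, 48.2 and 3.57 CPM with vehicle and 95.3, 99.5, 79.3 and 291 CPM with LPC, where it rose by 2.49 ± 0.66 (adjusted p = 0.048, edgeR). Its difference was 2.82 ± 0.90, and 2.15 without mice 2 and 4. Oas3, an oligoadenylate synthetase, and Trim30a had differences of 3.09 ± 0.85 and 3.01 ± 0.90. Without mice 2 and 4 the median differences of the lists were 0.96 for the GTPase list and 0.78 for the type I list, against 2.18 and 2.56 with all mice. With the muscle score as a covariate they were 0.71 and 0.38.

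**Figure D3:**
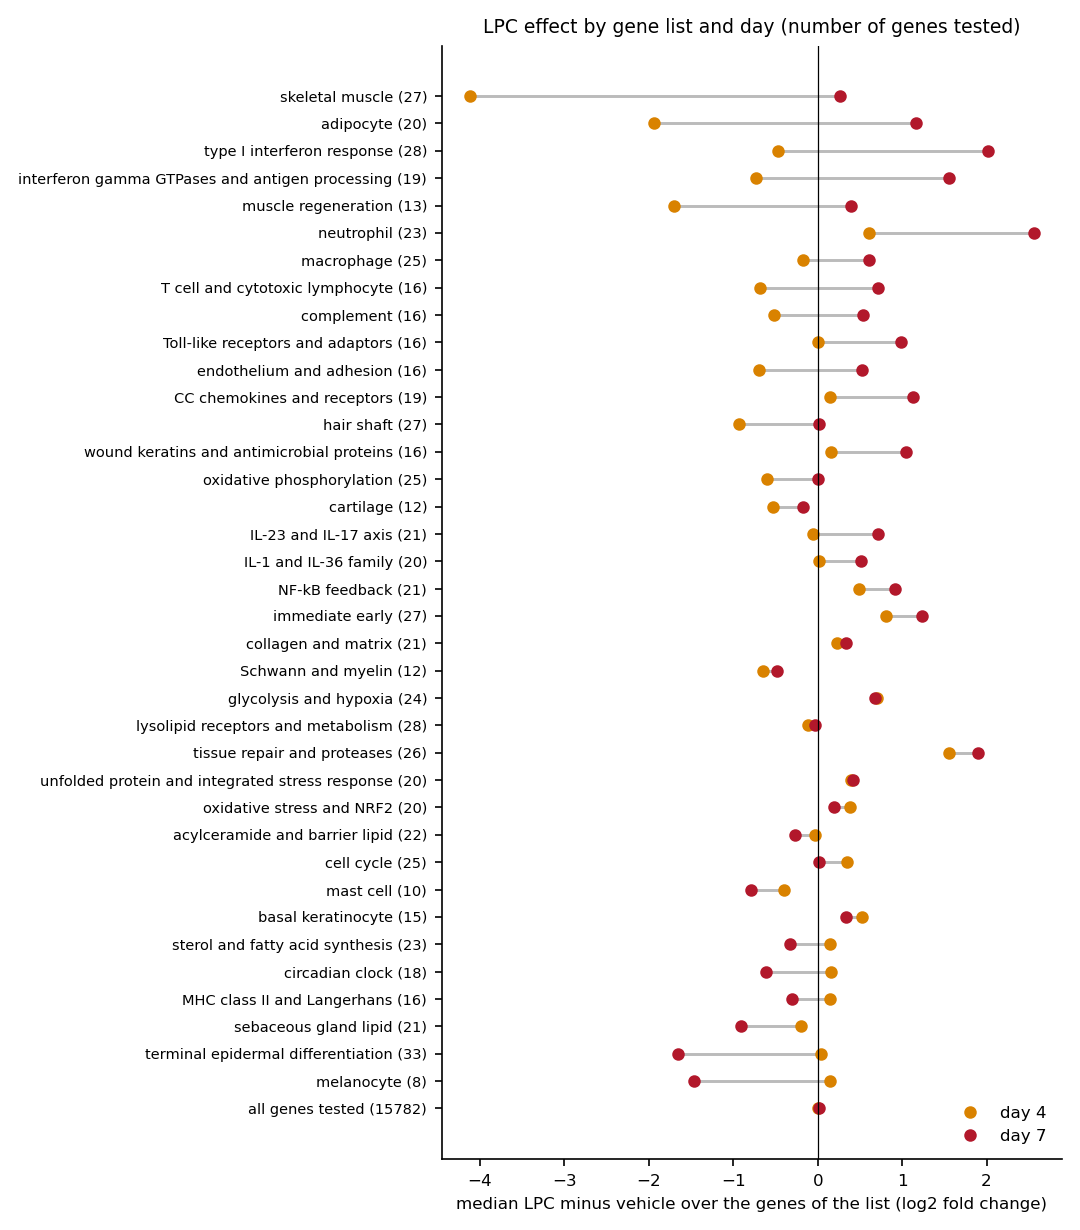
Median LPC effect at day 4 (orange) and at day 7 (red) over the tested genes of each list (log2 fold change, horizontal axis), ordered by the median difference, with the number of genes tested in brackets. Skeletal muscle runs from -4.12 to 0.27, adipocyte from -1.94 to 1.16 and type I interferon response from -0.47 to 2.02, while terminal epidermal differentiation runs from 0.04 to -1.65 and all genes tested stay near 0.

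The skeletal muscle and adipocyte lists had the largest median differences of the gene lists, 4.30 and 3.04. The ear holds thin striated muscles and dermal fat. All 27 skeletal muscle genes had a positive difference, each at an unadjusted p under 0.05 and none past the adjusted test, with medians of -4.12 at day 4 and 0.27 at day 7. Des, the intermediate filament desmin, was at 1989, 1293, 172 and 1300 CPM with vehicle and at 172, 40.2, 38.5 and 147 CPM with LPC at day 4. At day 7 it was at 498, 241, 639 and 534 CPM with vehicle and at 185, 1245, 67.7 and 1594 CPM with LPC. The vehicle mice lay between the 2 high and the 2 low LPC mice at day 7. The difference was 4.27 ± 1.25, and 1.71 without mice 2 and 4, when the day 7 effect was -1.89. Acta1 (skeletal actin) and Ryr1 (the calcium release channel) had differences of 4.84 ± 1.44 and 4.06 ± 1.26, and 1.85 and 1.43 without those mice.

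Only 3 of the 27 muscle genes were among the 157 sign-changing genes. The sign of the muscle median at day 7 depended on the scale: it was 0.27 in the count model, which fits group means of counts, and -1.18 on log2(FPKM + 0.1), which averages logs. The list score was 7.47 ± 1.05 in vehicle and 6.54 ± 2.81 in LPC at day 7 (SD, n = 4). Without mice 2 and 4 the median was -4.13 at day 4 and -3.40 at day 7, a median difference of 0.64. Muscle regeneration genes, among them Cdh15 (M-cadherin of satellite cells, 4.2 ± 1.15) and Myf6 (2.5 ± 0.81), had a median difference of 2.15 with 12 of 13 positive. Leaving out mice 2 and 4 gave a median difference of 0.46 and one of 2.23 for Cdh15, and with the muscle score as a covariate the median was 0.20.

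The adipocyte list held the largest number of sign-changing genes, 11 of 20, with medians of -1.94 at day 4 and 1.16 at day 7 in the count model. Here too the sign at day 7 depended on the scale. The day 7 median was -0.29 on log2(FPKM + 0.1) and -0.06 on log2(FPKM + 1). The list score at day 7 was 5.1 ± 0.94 in vehicle and 4.91 ± 2.38 in LPC (SD, n = 4). Adipoq, the hormone adiponectin, named after its values were seen, was at 53.3, 61.1, 9.81 and 48.9 CPM with vehicle and 8.06, 2.15, 9.14 and 2.14 CPM with LPC at day 4. The day 7 values were 30.4, 1.91, 39.3 and 12.2 CPM with vehicle and 0.542, 37.2, 1.20 and 289 CPM with LPC. In LPC day 7, mouse 4 was higher and mice 1 and 3 were lower than every vehicle mouse of that day. The difference was 4.98 ± 1.92, and -1.51 without mice 2 and 4, so that its sign turned. Cfd (the protease adipsin), also named after its values were seen, had 1.63, 142, 2.55 and 928 CPM in LPC day 7 and a difference of 5.77 ± 2.26 that was -1.18 without those mice. Over the list the median difference was 3.04, and -0.49 without mice 2 and 4. Slc2a4 (the insulin-responsive glucose transporter), Lpl (lipoprotein lipase) and Adrb3 (the fat cell adrenoceptor) had the smallest p of the list, with differences of 3.18 ± 0.96, 2.62 ± 0.81 and 4.51 ± 1.53. These were 1.26, 1.04 and 0.37 without mice 2 and 4, and the day 7 effect of Adrb3 was -1.73.

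Lymphocyte genes and cytokines of the interleukin 17 axis were rare transcripts in these libraries. Gzma, the cytotoxic granule protease granzyme A, had 6, 10, 2 and 41 counts with vehicle and 1, 0, 1 and 2 counts with LPC at day 4. The day 7 mice had 29, 0, 33 and 0 counts with vehicle and 3, 132, 5 and 272 counts with LPC. High counts at day 7 were thus in LPC mice 2 and 4, the mice with high muscle and fat scores. The difference was 6.38 ± 2.23, and 1.92 without those mice. Over the T cell and cytotoxic list the medians were -0.68 and 0.72, 13 of 16 genes had a positive difference, and 4 were among the 157. The day 7 median turned to -0.83 without mice 2 and 4, and the median difference was 0.07 against 1.20 with all mice. Prf1 (perforin) and Gzmb (granzyme B) had differences of 4.04 ± 1.44 and 3.35 ± 1.25, and without mice 2 and 4 these were 0.01 and 2.15. The 2 T cell markers found in the files summed to 1.41 to 4.84 CPM over all libraries.

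Il17a, which encodes the cytokine that drives psoriasis-like inflammation, had 3, 1, 0 and 56 counts with vehicle and 2, 2, 0 and 0 counts with LPC at day 4. At day 7 it had 10, 0, 16 and 1 counts with vehicle and 120, 11, 27 and 19 counts with LPC. The day 4 vehicle level came almost wholly from mouse 4, and at day 7 LPC mouse 1 was far above the rest. The effects were -3.70 ± 1.66 and 2.84 ± 1.30 and the difference was 6.53 ± 2.11 (adjusted p = 0.19, edgeR). It was 7.34 without LPC day 7 mice 2 and 4, but 3.20 without vehicle day 4 mouse 4. Il22, which acts on keratinocytes, had 1, 5, 0 and 70 counts with vehicle and 3, 0, 0 and 0 with LPC at day 4, and 45, 17, 13 and 0 with vehicle and 85, 24, 26 and 25 with LPC at day 7. Its difference was 5.59 ± 2.10, and 2.44 without vehicle day 4 mouse 4. Il17f, which lies beside Il17a and was named after its values were seen, had a difference of 4.44 ± 1.58, and 2.41 without that mouse. These 3 cytokines were among the 24 of the 157 genes that still changed sign past 2-fold without LPC day 7 mice 2 and 4. Of the whole IL-23 and IL-17 axis list, 14 of 21 genes had a positive and 7 a negative difference. At an unadjusted p under 0.05 (edgeR) these were 6 and 4, and within day 7 1 member rose and 2 fell. The smallest adjusted p of the list, 0.18 (edgeR), belonged to none of the 3 cytokines above. The list median was 0.49, which was 1.26 without LPC day 7 mice 2 and 4 and 0.14 without mice 1 and 3.

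Selp encodes P-selectin, which lets leukocytes roll on activated endothelium. It was at 29.5, 80.3, 12.9 and 61.6 CPM with vehicle and 24.8, 7.57, 8.67 and 21.3 CPM with LPC at day 4. On day 7 these were 30.6, 13.6, 25.2 and 16.7 CPM with vehicle and 75.4, 57.4, 44.4 and 75 CPM with LPC. The groups overlapped at day 4 and were apart at day 7. The effects were -1.56 ± 0.50 and 1.55 ± 0.50 (adjusted p of 0.11 and 0.098, edgeR), and the difference of 3.11 ± 0.71 was 3.08 without mice 2 and 4. All 16 genes of the endothelium and adhesion list had a positive difference, with a median of 1.11, but Selp alone changed sign past 2-fold. The list median was 0.18 without LPC day 7 mice 2 and 4, and with the muscle score as a covariate 0.09. Cdh5 (VE-cadherin) and Flt1 (a receptor of vascular endothelial growth factor) had differences of 1.5 ± 0.55 and 1.45 ± 0.48, which were 0.74 and 0.99 without mice 2 and 4.

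Lrg1, a secreted glycoprotein of inflamed vessels and the acute phase, was at 129.5, 147.5, 31.0 and 117.3 CPM with vehicle and 77.4, 31.5, 32.1 and 51.4 CPM with LPC at day 4. Its values at day 7 were 64.2, 45.6, 56.0 and 48.0 CPM with vehicle and 132.6, 155.2, 105.7 and 192.1 CPM with LPC. Every LPC mouse was above every vehicle mouse at day 7. At day 4 vehicle mouse 3 lay just below the lowest LPC mouse, while the other vehicle mice lay above all LPC mice. The difference was 2.60 ± 0.55, and 2.34 without mice 2 and 4. Tgm2, tissue transglutaminase, had vehicle means of 221 and 83.0 CPM and LPC means of 75.8 and 201 CPM, and a difference of 2.81 ± 0.61. Hp, the acute phase protein haptoglobin, named after its values were seen, had effects of -1.51 at day 4 and 2.12 at day 7.

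Neutrophil genes had a positive median effect at both days. In the neutrophil list the medians were 0.61 at day 4 and 2.56 at day 7, 22 of 23 genes had a positive difference and none was among the 157. The day 4 median was 0.28 without vehicle day 4 mouse 3, and 0.06 with the adipocyte score as a covariate. Hdc (histidine decarboxylase) and Il1r2 (a decoy receptor of interleukin 1) rose at day 7 by 2.40 ± 0.62 and 1.47 ± 0.32 (adjusted p of 0.046 and 0.026, edgeR), with differences of 2.35 ± 0.84 and 1.06 ± 0.44 that were 1.12 and 0.36 without mice 1 and 3. Neutrophil scores in LPC day 7 were 7.2, 5.68, 6.98 and 5.24, so here mice 1 and 3 were the higher pair, and the median difference without mice 2 and 4 was 2.72 against 2.08 with all mice. Without mice 1 and 3 it was 0.58. In the macrophage list 21 of 25 genes had a positive difference, with a median of 1.20 that turned to -0.43 without mice 2 and 4 and to -0.15 with the muscle score as a covariate. Fcgr3 and Fcgr4, receptors of immunoglobulin G, had differences of 1.78 ± 0.45 and 3.53 ± 0.97. Fcgr4 ran from 1.4 to 16.6 CPM in the mice outside LPC day 7 and was at 34.2, 50.2, 21.2 and 110 CPM in LPC day 7. Adgre1, the F4/80 antigen of macrophages, named after its values were seen, was at 5.30, 80.8, 4.51 and 90.3 CPM in LPC day 7, and its difference of 2.87 ± 1.13 was -0.29 without mice 2 and 4. Of 16 Toll-like receptor and adaptor genes 15 had a positive difference, 10 of them at an unadjusted p under 0.05, with a median of 1.12 (0.72 without mice 2 and 4), and Tlr13 and Tlr2 rose at day 7.

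Over the 33 terminal differentiation genes of the epidermis the median effects were 0.04 at day 4 and -1.65 at day 7, and 28 of 33 had a negative difference, 18 of them at an unadjusted p under 0.05. The signs were opposite, higher at day 4 and lower at day 7, for 9 of the 33. The median difference was -2.53 without LPC day 7 mice 2 and 4 against -1.44 with all mice. Positive medians at both days were seen for 2 other epidermal lists, 0.53 and 0.34 for basal keratinocyte genes and 0.16 and 1.05 for wound keratins and antimicrobial proteins. Without vehicle day 4 mouse 3 the day 4 median of the wound keratin list was -0.1. The day 7 median of the basal keratinocyte list was -0.25 without LPC day 7 mice 1 and 3 and 0.81 without mice 2 and 4. Acylceramide and barrier lipid genes had medians of -0.03 and -0.27, with 15 of 22 differences negative and 7 positive. Krt10, a keratin of the suprabasal layers, was at 4965, 1722, 4442 and 2272 CPM with vehicle and 3055, 6948, 6918 and 4633 CPM with LPC at day 4. At day 7 it was at 7951, 6598, 8528 and 8100 CPM with vehicle and 937, 2954, 1626 and 1082 CPM with LPC. The groups overlapped at day 4, and at day 7 every LPC mouse was below every vehicle mouse. Krt10 had an effect of 0.69 ± 0.40 at day 4 and fell at day 7 by 2.24 (SE 0.42, adjusted p = 0.015, edgeR), and the difference was -2.93 ± 0.58 (adjusted p = 0.11). Without mice 2 and 4 it was -3.26. Its vehicle mean was 3350 CPM at day 4 and 7790 CPM at day 7, and its LPC means were 5390 and 1650 CPM. Lce1k, a late cornified envelope protein, and Krt1, the partner of Krt10, had differences of -2.67 ± 0.71 and -2.24 ± 0.60. In the list as a whole, the median change from day 4 to day 7 was 0.18 in vehicle skin and -1.01 in LPC skin.

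In the circadian clock list 15 of 18 genes had a negative difference, 6 of them at an unadjusted p under 0.05, with a median of -0.45 that was -0.81 without LPC day 7 mice 1 and 3. Hlf, a PAR bZIP factor of clock output, was at 54.1, 30.0, 50.8 and 27.0 CPM with vehicle and 36.5, 67.2, 73.7 and 36.7 CPM with LPC at day 4. The day 7 values were 18.1, 27.9, 25.6 and 50.4 CPM with vehicle and 11.3, 8.28, 13.1 and 10.3 CPM with LPC. It fell at day 7 by 1.5 (SE 0.34, adjusted p = 0.029, edgeR), and its difference was -1.90 ± 0.47. Ciart, a repressor of the clock, had -1.88 ± 0.53, while Nfil3, which opposes the PAR bZIP factors at their binding sites, had 1.56 ± 0.39. The hour of killing was not known here, and its part in these values was not tested. Melanocyte genes had negative differences in 8 of 8 members, with a median of -1.67.

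Only Cyp24a1, the enzyme that degrades active vitamin D, was both higher at day 4 and lower at day 7 past 2-fold and above the expression limit for naming. It was at 5.87, 5.98, 3.48 and 2.36 CPM with vehicle and 25, 4.84, 10.2 and 0.814 CPM with LPC at day 4, and at 4.58, 2.11, 6.75 and 4.01 CPM with vehicle and 0.542, 1.25, 0.326 and 5.92 CPM with LPC at day 7. The groups overlapped at both days, and the difference of -2.32 ± 1.24 had an adjusted p of 0.35 (edgeR). It was -4.49 without LPC day 7 mice 2 and 4 and -1.47 without mice 1 and 3. The other 5 genes, Cuzd1, Tmem200a, Apol7b, Gm13278 and Gm21992, had average log2 CPM below 0.

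Genes of tissue injury and repair had a positive median effect at both days, and 1 of 26 was lower at day 4 and higher at day 7. In the tissue repair and protease list the medians were 1.56 at day 4 and 1.90 at day 7, and differences were positive for 14 genes and negative for 12. The median difference was 0.08, and it was 0.53 without LPC day 7 mice 2 and 4 and -0.57 without mice 1 and 3. Mmp10, a matrix metalloproteinase of migrating keratinocytes, was at 1.16, 2.07, 0.580 and 1.13 CPM with vehicle and 100, 16.4, 37.1 and 55.8 CPM with LPC at day 4. On day 7 these were 2.29, 1.39, 1.79 and 0.783 CPM with vehicle and 31.5, 1.10, 35.4 and 3.48 CPM with LPC. It rose at both days, by 5.40 ± 0.97 and 3.51 ± 0.89 (adjusted p of 0.046 and 0.044, edgeR), and the difference was -1.89 ± 1.19, which was -0.94 without LPC day 7 mice 2 and 4 and -4.83 without mice 1 and 3. The low LPC mice at day 7 were again 2 and 4. Rgs1, a regulator of G protein signalling, and Gdf15, a stress cytokine, also rose at both days, with differences of -0.35 ± 0.61 and -0.75 ± 0.65, which were 0.16 and -0.18 without mice 2 and 4 and -1.05 and -1.60 without mice 1 and 3. Hmox1, the haem-degrading enzyme, rose by 1.78 ± 0.32 and 1.36 ± 0.32, a difference of -0.42 ± 0.44. The standard errors of these differences leave room for an effect smaller or larger at day 7, so they do not show that the effects were alike.

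Csf3, Pla2g7 and Gpr132 rose at day 7 and did not pass the test at day 4. Csf3, the granulocyte growth factor, was at 11.3, 15.8, 0.966 and 31.6 CPM with vehicle and 13.3, 17.5, 4.57 and 38.0 CPM with LPC at day 4. Its values at day 7 were 8.18, 8.35, 5.06 and 0.734 CPM with vehicle and 286.2, 17.7, 164.5 and 30.6 CPM with LPC. It rose at day 7 by 4.48 ± 1.10 (adjusted p = 0.039, edgeR), against an effect of 0.30 ± 0.96 at day 4, and the difference was 4.18 ± 1.41. Il6 had 117, 6.22, 87.0 and 5.45 CPM in LPC day 7 and a difference of 3.18 ± 1.54. For both genes LPC day 7 mice 1 and 3 were the high pair, and without them the differences were 1.83 and -0.02. Pla2g7, a secreted phospholipase that cleaves oxidized phospholipids and releases LPC, was at 20 to 29.6 CPM in all mice of day 4, and at day 7 at 39.2, 18.7, 42.9 and 20.5 CPM with vehicle and 78.3, 107, 80.1 and 96.4 CPM with LPC. It rose at day 7 by 1.58 ± 0.25 (adjusted p = 0.010, edgeR), and its difference of 1.68 ± 0.35 was the one with the smallest p in the list of lysolipid receptors and enzymes. Gpr132, a receptor proposed for LPC, rose at day 7 by 1.16 ± 0.29 with a difference of 1.05 ± 0.41.

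**Figure D4:**
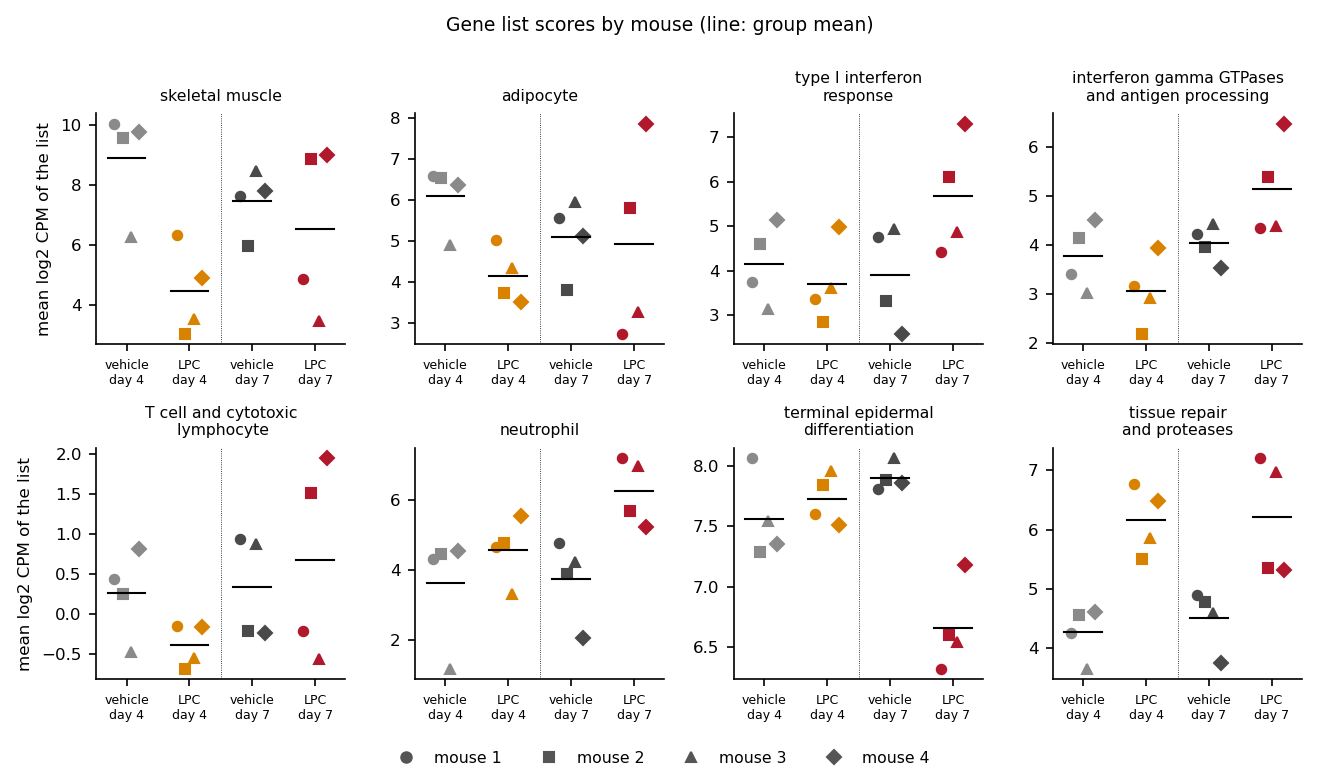
Mean log2 CPM over the genes of 8 lists in each of the 16 mice (vertical axes), by group (horizontal axes); symbols give the mouse number and lines the group mean (n = 4). In LPC day 7, mice 2 and 4 stand above mice 1 and 3 for muscle, adipocyte, interferon and T cell lists and below them for neutrophil and repair lists, while terminal differentiation is lower than in every vehicle day 7 mouse in all 4.

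The 157 genes were not carried equally by the mice. Each mouse was set against the mean log2 CPM of the vehicle mice of its day. At day 4 the 4 LPC mice had between 2 and 11 of the 157 genes above that mean, with medians between -1.77 and -1.10. At day 7, LPC mice 2 and 4 had 148 and 154 genes above it, with medians of 1.67 and 3.02, and LPC mice 1 and 3 had 58 and 65 genes above it, with medians of -0.49 and -0.35. On the vehicle side, mouse 3 of day 4 had 7 of the 157 genes above the mean of its own group (median -1.24). The high day 7 side of these genes was thus mainly that of mice 2 and 4, whose muscle and adipocyte scores were also high.

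**Figure D5:**
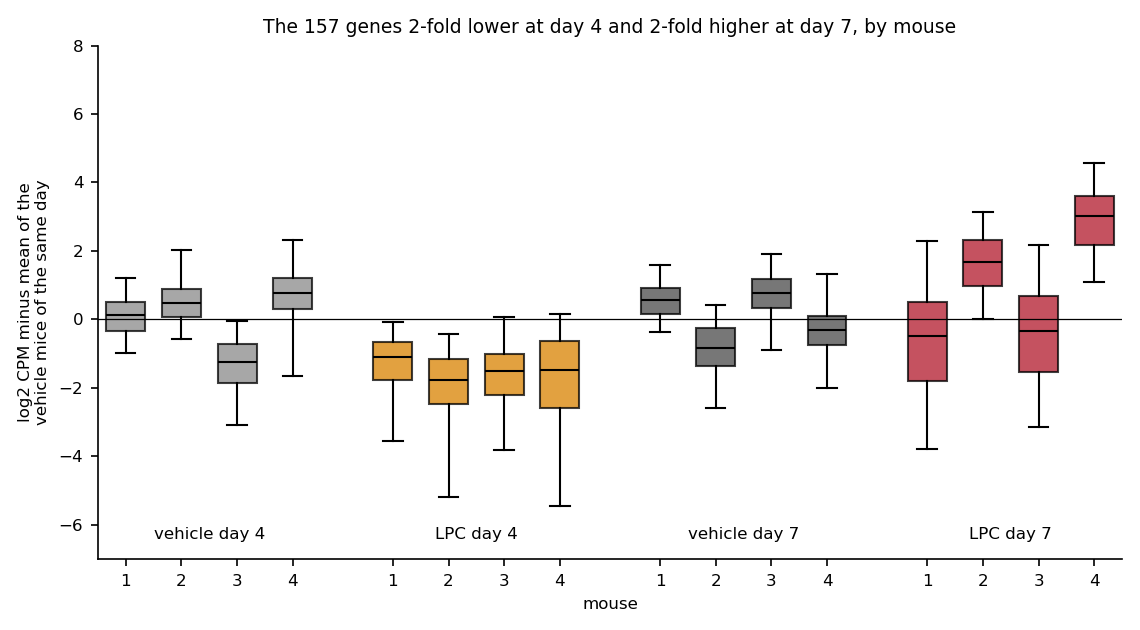
Log2 CPM of the 157 genes at least 2-fold lower at day 4 and 2-fold higher at day 7, minus the mean of the 4 vehicle mice of the same day (vertical axis), for each of the 16 mice; boxes show the median and quartiles over genes, whiskers the 5th and 95th percentiles. LPC day 7 mice 2 and 4 have medians of 1.67 and 3.02, mice 1 and 3 have -0.49 and -0.35, and the genes were chosen by these same values.

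With LPC day 7 mice 2 and 4 left out, 24 of the 157 genes still had opposite effects past 2-fold, and 53 were still lower at day 4 and higher at day 7 by any amount. The 24 held Il17a, Il17f, Il22, Selp, Lrg1, Hp, Ifi47, Trim30a and Cntn2. With mice 1 and 3 left out instead, 148 of the 157 kept both effects past 2-fold. Leaving out LPC day 7 mouse 4 alone kept 53, and with the muscle score as a covariate 14 were kept. The number of genes called for the difference was 68 without mice 2 and 4 and 2798 without mice 1 and 3. It was 214 without vehicle day 4 mouse 3, and 0 without any single LPC mouse. The mice were paired by values already seen, and leaving out either pair removes the spread between the pairs. The counts without a pair are therefore a description and no independent check, and both settings are among the 29 alternatives named next. Among the leading genes, the difference of Tbx3, Trim62, Itgal, Pou2f3 and Krt10 had the same sign in all 29 alternatives, and passed an adjusted p under 0.05 in 9, 6, 7, 5 and 6 of them. The part of tissue make-up in the sign changes was not tested beyond these values.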

How the data were processed

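Whole ear skin RNA of 16 mice (4 groups of 4, by the sample titles) was extracted with TRIpure, sequenced on a BGISEQ-500, aligned to GRCm38 with Bowtie2 and quantified with RSEM, per the labels' protocols; no versions of these tools are stated. The titles carry days 4 and 7, and the file names carry other day numbers. The authors deposited an expected count and an FPKM value per gene; genes not listed for a library were set to 0. Expected counts were rounded and totalled 18704197 to 20131513 per library. After edgeR's low-count filter (3657 genes removed), 15782 genes were fitted with TMM scaling and the quasi-likelihood test (edgeR 4.0.16, R 4.3.3) on all 4 groups (12 residual degrees of freedom), and the difference of LPC effects was tested as 1 contrast with Benjamini-Hochberg adjustment. The deposited FPKM values were used, as log2 of FPKM plus 0.1 or 1 in limma 3.58.1, as an alternative beside limma-voom and DESeq2 1.42.0. CPM values are scaled by TMM library sizes and not by gene length. The fitting scripts were tested on simulated data.

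Genes were named by rule: per direction the 10 with the smallest p of the difference and an average log2 CPM of at least 1 (none was called), the 10 sign-changing genes per direction with the smallest p, up to 3 members of each list by smallest p, and a panel of 14 genes. Genes outside it are said to be chosen after their values were seen. The members and the 37 gene lists were chosen with earlier results of these data known. Lists are described by counts and medians without a test.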

Additional observations from a re-analysis of the deposited data

Results flagged for a closer look

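Single mice that stood far from the other 3 of their group were found in 13 of 144 groups of values checked, and chance flags about 1 in 20. Mouse 3 of vehicle day 4 was the low animal in 7 of them. Its values were 34.3 CPM for Isg15 (52.8 to 54.4 in the others), 31.0 for Lrg1, 72.0 for Tgm2 and 9.81 for Adipoq. Its muscle score was 6.26, its adipocyte score 4.89 and its neutrophil score 1.16 (4.30 to 4.54 in the others).

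In vehicle day 7, mouse 2 was low for Tspan13, at 6.18 CPM against 15.5 to 18.0, and for Edn1, at 6.34 CPM against 9.01 to 9.48. Mouse 2 of LPC day 7 was low for Bmp2, at 4.87 CPM. Il22 was high in mouse 1 of both LPC groups, at 0.16 CPM on day 4, when the other 3 had 0, and at 5.12 CPM on day 7. Pla2g7 was high in mouse 4 of LPC day 4, at 29.6 CPM against 20 to 20.7.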

How the results depend on the processing

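The number of genes called for the difference was 0 in the reported fit. It was 1 with median-of-ratios size factors, 585 with DESeq2, 9 with limma-voom, 1 with log2(FPKM + 1), 95 with the hair shaft score as covariate, 68 without LPC day 7 mice 2 and 4 and 2798 without mice 1 and 3. Leaving out 1 mouse at a time gave 0 to 214, with 214 without vehicle day 4 mouse 3, 3 without vehicle day 7 mouse 1 and 1 without vehicle day 7 mouse 4. The 163 sign-changing genes became 503 with no low-count filter, 50 and 10 with log2(FPKM + 0.1) and log2(FPKM + 1), 57 and 55 with the muscle and adipocyte scores as covariates, 52 without LPC day 7 mice 2 and 4, 539 without mice 1 and 3, and 541 and 45 at fold limits of 1.5 and 3. Leaving out 1 mouse gave 65 (without LPC day 7 mouse 4) to 261 (without mouse 1), and 255 without mouse 3. Over the 29 alternatives the genes called within day 4 ran from 0 to 1763 and those within day 7 from 111 to 3376, so both counts depend on the setting. With log2(FPKM + 0.1) the median difference of all genes was -0.1.

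Among the genes the naming rule or the text gives, the difference turned its sign for 12. These were Adipoq (-0.99 with the muscle score, -0.58 with the adipocyte score, -1.51 without LPC day 7 mice 2 and 4), Cfd (-1.36, -0.17 and -1.18), Adgre1 (-0.29 without mice 2 and 4), Il6 (-0.02 without mice 1 and 3), Rgs1 (0.01 with the hair shaft score, 0.16 without mice 2 and 4), the chemokine genes Ccl5 (-0.69 with the muscle score, -0.60 with the adipocyte score, -1.22 without mice 2 and 4) and Ccl9 (-0.22 with the muscle score), the cartilage genes Ucma (-2.18, -1.01 and -1.52 in the order given for Ccl5) and Comp (-1.75, -0.69 and -1.02), the mast cell genes Fcer1a (0.04 with limma-voom) and Tpsb2 (0.25 without mice 1 and 3), and Adm (-0.94 to 0.10 when leaving out 1 mouse, with 0.10 without LPC day 4 mouse 3). With all mice, Ccl5, Ccl9, Ucma and Comp had differences of 3.05, 1.14, 2.02 and 0.87, and Fcer1a, Tpsb2 and Adm had -0.50, -0.35 and -0.41. Adipoq and Cfd are members of the adipocyte list, so the adipocyte score used as a covariate holds their own values. Beyond what the construction of each alternative shows, the cause was not tested.

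With the mouse number as a replicate block 0 genes were called and 114 changed sign past 2-fold. Over 24 pairs of mice of the same number, r ran from -0.596 to 0.539 with a median of -0.0825, against a median of 0.0214 for other pairs. Of 16 libraries, 2 correlated best with their own number. These values gave no sign that the numbers pair the mice, but cannot show that no pairing existed.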
